A study of Caenorhabditis elegans with 7 samples.

Results

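The UDP-glycosyltransferase family of Caenorhabditis elegans was examined in RNA from whole animals collected at the fourth larval stage (L4). Members were taken by name, as every row of the deposited gene table called ugt followed by a number, which gave 65 of 46778 rows. All 65 were labelled protein coding and all 65 carried the UDPGT family label of the table. Of these, 47 reached 0.5 FPKM (fragments per kilobase of gene length, scaled to the size of the library) in at least 3 of the 7 libraries, and these 47 are the reported members among 13194 genes that passed the same minimum. WT Late animals (4 libraries) came from a population of the wild-type strain N2 in which only offspring laid on day 3 of parental adulthood founded each next generation, for at least 50 generations. WT animals (3 libraries) were N2 without that selection. The labels name no transgene or mutation in either group. The study did report variants in coding regions after genome sequencing of WT Late animals. Both groups were hatched in synchrony and grown to L4 on Escherichia coli OP50 on plates with streptomycin. The labels call the libraries biological replicates. The study describes late selection of a population, and no separately selected populations are named. The p-values therefore set the group difference against the spread between these libraries, not against the spread between separately selected populations.

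UDP-glycosyltransferases are enzymes of the endoplasmic reticulum membrane that join the sugar of a UDP-sugar to a small lipophilic molecule, which makes it easier to export. They act in the conjugation phase of detoxification, after cytochrome P450 enzymes and beside glutathione S-transferases. In nematodes the sugar is mostly glucose, many family members are expressed in the intestine, and the family is known for glucosylating anthelmintic drugs and bacterial toxins. The substrate of most single members is not established, so members are described here by position and level. No protein or DNA sequences were used here.

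The family was unevenly placed in the genome. Chromosome V held 41 of the 65 members and 26 of the 47 reported ones, a share of 55.3%, while 18.9% of all tested genes lay on V. Chromosome IV held 12 members (11 reported), I held 5 (4 reported), X held 4 (3 reported), III held 2 (both reported) and II held 1, which was reported. The listed gene lengths ran between 1536 and 2268 bases, and the longest transcript of a member in the WBcel235 annotation had between 4 and 11 exons, with a median of 7. The ugt-37 and ugt-40 genes overlap on one strand of chromosome V. The ugt-47, ugt-48, ugt-50, ugt-51, ugt-59 and ugt-65 genes each overlap a protein-coding gene outside the family. The labels and methods do not say whether the counting used strand, so reads of overlapping genes, and reads shared between similar members, may have been split between them.

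Reads on genes ranged between 17553893 and 20961698 per library, as recovered from the FPKM values, and a scaling factor per library (median of ratios, 0.848 to 1.38) turned FPKM into rescaled FPKM, the level used below. WT Late replicate 3 stood apart. Ribosomal protein genes took 12.5% of its reads, against 24.0% to 33.1% in the other WT Late libraries and 22.5% to 27.8% in WT, and it had a read on 18490 genes, against 11069 to 14544 in the other WT Late libraries and 15723 to 16297 in WT. Its summed level of 9 intestinal markers was 1642, against 8127 to 18566 in the other WT Late libraries and 5876 to 8870 in WT, with none of the 9 markers at 0 in any library. Most of that sum was asp-1 (1022) and act-5 (375). Low sums in this library were not particular to intestine. It was also the lowest of the 7 libraries for epidermis and cuticle (347), body muscle (825) and neurons (116). The same held for sperm (575), adult stage (251) and oocyte and eggshell (94.6), but not for germline (126). The 7 markers of the adult stage, vitellogenins and an adult collagen, summed to 251 to 1137 in WT Late and 1253 to 3659 in WT, and 5 of the 7 were called lower in WT Late. Among 10 genes listed for intestine 1 was not found in the table by name. Summed levels of the other marker lists overlapped between the groups: epidermis and cuticle 347 to 1879 in WT Late and 487 to 1040 in WT, body muscle 825 to 3502 in WT Late and 1835 to 2900 in WT, neurons 116 to 290 in WT Late and 160 to 206 in WT, germline 37.5 to 126 in WT Late and 86.9 to 226 in WT, sperm 575 to 2909 in WT Late and 1164 to 2471 in WT, and oocyte and eggshell 94.6 to 203 in WT Late and 195 to 247 in WT. Of these 6 lists, 1 gene was called, the collagen gene dpy-7 in epidermis and cuticle. It was higher in WT Late, at 21.4 to 62.4 rescaled FPKM against 4.74 to 6.00 in WT (log2 fold change 2.96, limma adjusted p = 0.00471). All 8 germline, all 8 sperm and all 7 oocyte and eggshell markers had a negative log2 fold change. Their medians were -0.79, -0.50 and -0.75, beside -0.13 over all tested genes. Markers went both ways in epidermis and cuticle (4 higher, 3 lower), body muscle (1 higher, 4 lower) and neurons (3 higher, 3 lower). The part of these differences in the family's values was not tested. In RNA of whole animals, fewer cells of a type and less RNA per cell cannot be told apart.

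In WT, 13 of the 47 reported members averaged at least 10 rescaled FPKM, 27 averaged between 1 and 10, and 7 averaged below 1. In WT Late the same bands held 15, 25 and 7 members. FPKM is per length of gene, so levels can be set side by side between genes. The most abundant member was ugt-62 (chromosome III, 4537277 to 4540644, minus strand, 8 exons), at 90.8 ± 18.1 rescaled FPKM in WT Late (SD, n = 4) and 51.0 ± 12.3 in WT (SD, n = 3). It was followed in WT by ugt-47 at 41.8, ugt-22 at 40.4, ugt-46 at 29.4 and ugt-23 at 27.8, then by ugt-49 at 17.2, ugt-6 at 15.5, ugt-58 at 14.5, ugt-50 at 14.1 and ugt-12 at 12.3. The ranges of each pair of neighbours in this order overlapped in WT, except between ugt-23, whose lowest WT library was at 23.4, and ugt-49, whose highest was at 22.8. The first 5 places held the same 5 members in WT Late, with ugt-22 and ugt-47 in exchanged order. The 5 together made up 49% of the family's summed mean level in WT. Lower in the order, ugt-28 stood in place 16 in WT Late and place 45 in WT, ugt-26 in place 7 in WT Late and place 16 in WT, and ugt-44 in place 22 in WT Late and place 12 in WT.

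**Figure D1:**
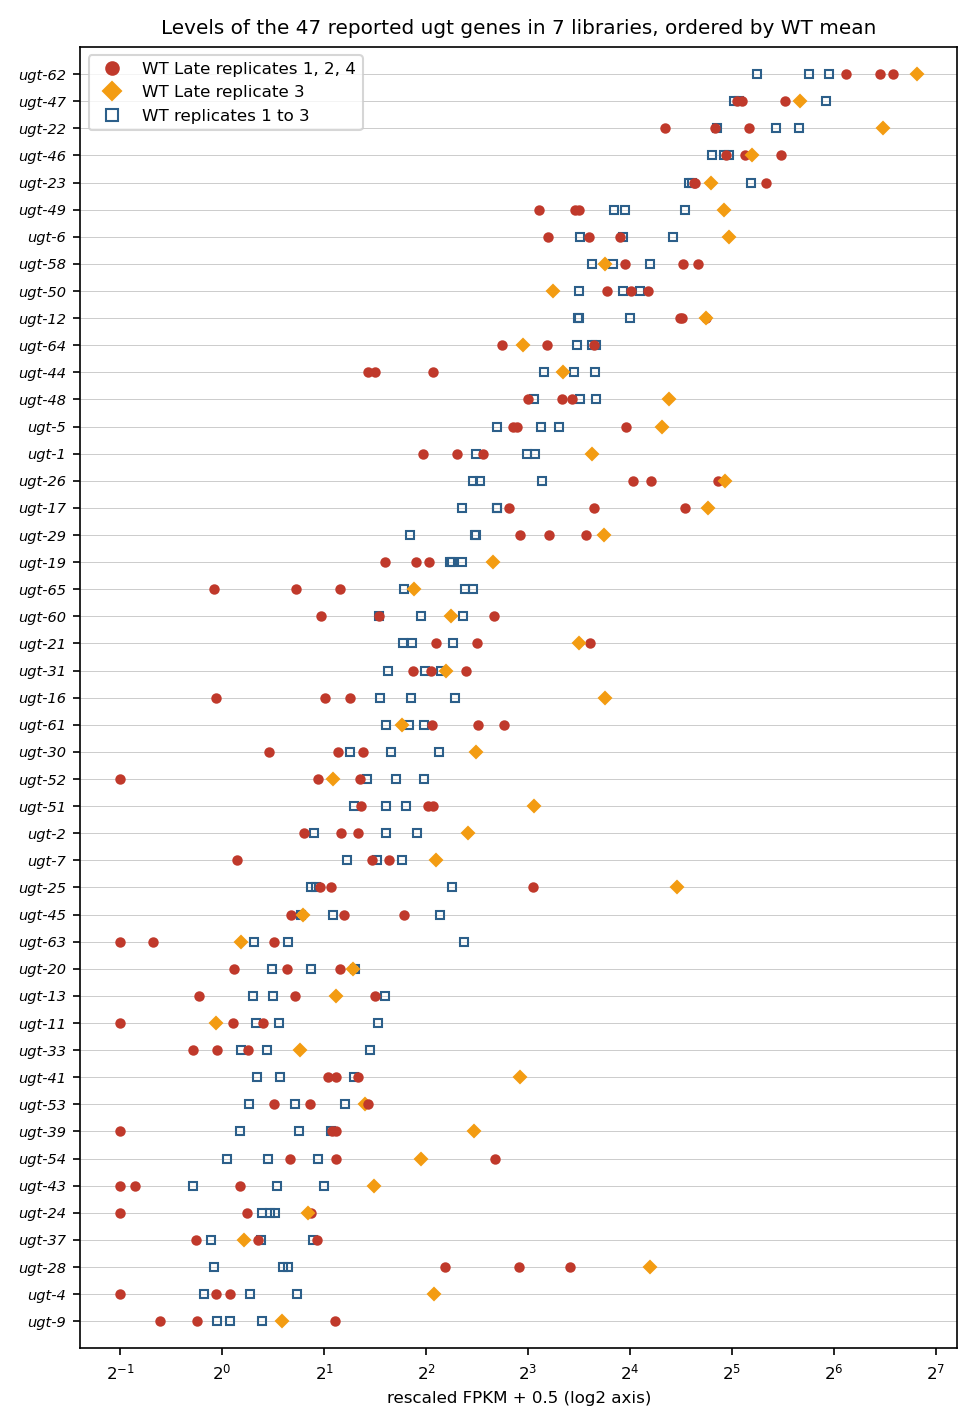
Levels of the 47 reported ugt genes, in rescaled FPKM plus 0.5 on a log2 axis. Each row is a gene, ordered by its WT mean, and each point is a library (filled circles, WT Late replicates 1, 2 and 4; diamonds, WT Late replicate 3; open squares, WT). The points of ugt-28, near the bottom, lie between 4.06 and 17.8 rescaled FPKM in WT Late and between 0.446 and 1.06 in WT.

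The first question was whether the family as a whole differed after late selection. It did not move one way. Of the 47 reported members, 21 had a positive log2 fold change (WT Late over WT) and 26 a negative one. The positive share was 44.7%, beside 41.6% of all tested genes. On the log2 scale 30 members lay within 0.5 of zero, beside 7837 of the 13194 tested genes. The median log2 fold change was -0.02 over the members, beside -0.13 over all 13194 tested genes. In limma's test across all tested genes, with Benjamini-Hochberg adjustment, 2 members were called higher in WT Late at an adjusted p under 0.05, beside 0.667% of all tested genes. None was called lower, beside 0.182% of all tested genes. At an unadjusted p under 0.05 there were 6 higher and 3 lower, together 19.1% of the members beside 8.89% of all tested genes. With library weights, limma called 2 members higher and 2 lower. That fit also called more genes in the other detoxification lists below, 5 higher and 6 lower, against 2 and 0 without weights. Its share over all tested genes is not given here, so its counts are not read as a result about the family. Every WT Late library lay above every WT library for 6 members (12.8%), beside 4.67% of all tested genes. Every WT Late library lay below every WT library for 1 member (2.13%), beside 5.09% of all tested genes. Without WT Late replicate 3, a count chosen after seeing the data, the groups did not overlap for 7 members higher (14.9%, beside 13.7% of all tested genes) and 6 lower (12.8%, beside 18.5%).

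The 2 called members are neighbours on chromosome I. The ugt-28 gene (positions 4727280 to 4730366, plus strand, 6 exons) had 7.00, 10.2, 17.8 and 4.06 rescaled FPKM in WT Late replicates 1 to 4, against 0.446, 1.06 and 1.01 in WT replicates 1 to 3. These values rested on 228, 279, 1343 and 73 reads in WT Late, and on 14, 43 and 40 reads in WT. The lowest WT Late library was well above the highest WT library. The means were 9.76 ± 5.92 in WT Late (SD, n = 4) and 0.841 ± 0.343 in WT (SD, n = 3), and 7.08 in WT Late without replicate 3. The log2 fold change was 2.79 with a standard error of 0.52 (limma adjusted p = 0.0253, exact two-sided permutation p = 0.0286, the smallest this design allows). The call was lost, at adjusted p between 0.0604 and 0.184 by limma, without WT Late replicate 1 or 2 or without any one of the 3 WT libraries, and also with FPKM as deposited (0.0861), without the filter (0.129) and with limma voom (0.157). The direction was the same in all 17 of the alternatives fitted, with log2 fold changes between 2.38 and 3.47.

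The ugt-26 gene lies upstream on the same strand (chromosome I, 4721131 to 4723960, 7 exons). It had 18.0, 28.7, 29.9 and 15.8 rescaled FPKM in WT Late replicates 1 to 4, against 5.01, 5.29 and 8.28 in WT replicates 1 to 3. Here too the WT Late libraries lay apart from WT, with replicates 2 and 3 the highest. The means were 23.1 ± 7.24 in WT Late (SD, n = 4) and 6.19 ± 1.81 in WT (SD, n = 3), and the log2 fold change was 1.80 with a standard error of 0.37 (limma adjusted p = 0.0496, exact permutation p = 0.0286). This call lay at the threshold. It held in 4 of 17 alternatives, was lost on leaving out any single library other than WT Late replicate 3 (limma adjusted p between 0.0607 and 0.275), and kept its direction in all 17, between 1.47 and 2.01.

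The other members of that stretch of chromosome I were less even. The ugt-25 gene (4731603 to 4735276, 5 exons) had 1.60, 7.80, 21.5 and 1.45 rescaled FPKM in WT Late, against 1.33, 4.26 and 1.40 in WT. WT Late replicates 2 and 3 were above all WT libraries while replicates 1 and 4 were within their range. Its log2 fold change of 1.04 had a standard error of 0.79 (limma adjusted p = 0.756), and the WT Late mean was 8.08 with replicate 3 and 3.62 without it. The fourth gene, ugt-27, did not reach the minimum and had a read only in WT Late replicates 3 and 4.

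Of the other 4 members whose WT Late libraries all lay above WT, none passed the adjusted test. The ugt-12 gene (chromosome V, 4887187 to 4889629, minus strand) had 26.3, 22.0, 26.4 and 22.3 rescaled FPKM in WT Late, against 10.8, 10.7 and 15.5 in WT. Its 4 WT Late libraries were the tightest of this set, at 24.2 ± 2.41 (SD, n = 4), against 12.3 ± 2.73 in WT (SD, n = 3). The log2 fold change was 0.96 with a standard error of 0.32 (limma adjusted p = 0.319, exact permutation p = 0.0286). The ugt-29 gene (chromosome V, 696523 to 699614, minus strand) had 8.72, 11.4, 12.9 and 7.07 rescaled FPKM in WT Late, against 3.09, 5.06 and 5.13 in WT. Replicate 3 was again the highest library, and the lowest WT Late library stood above WT by less than the range within WT. This gave a log2 fold change of 1.09 with a standard error of 0.38 (limma adjusted p = 0.362, exact permutation p = 0.0286).

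The ugt-17 gene (chromosome V, 10102592 to 10104946, minus strand) had 12.1, 22.8, 26.7 and 6.55 rescaled FPKM in WT Late, against 4.60, 5.96 and 5.99 in WT. The WT Late libraries spread widely and replicate 4 lay just above WT. On the log2 scale the fold change was 1.36 with a standard error of 0.47 (limma adjusted p = 0.348, exact permutation p = 0.0571). For ugt-62, the most abundant member, the levels were 87.0, 95.2, 112 and 68.8 rescaled FPKM in WT Late, against 53.7, 37.6 and 61.6 in WT. The gap between the groups was small beside the spread within each. Its log2 fold change was 0.83 with a standard error of 0.35 (limma adjusted p = 0.478, exact permutation p = 0.0571). All 6 of these members had WT Late replicate 3 as their highest library.

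**Figure D2:**
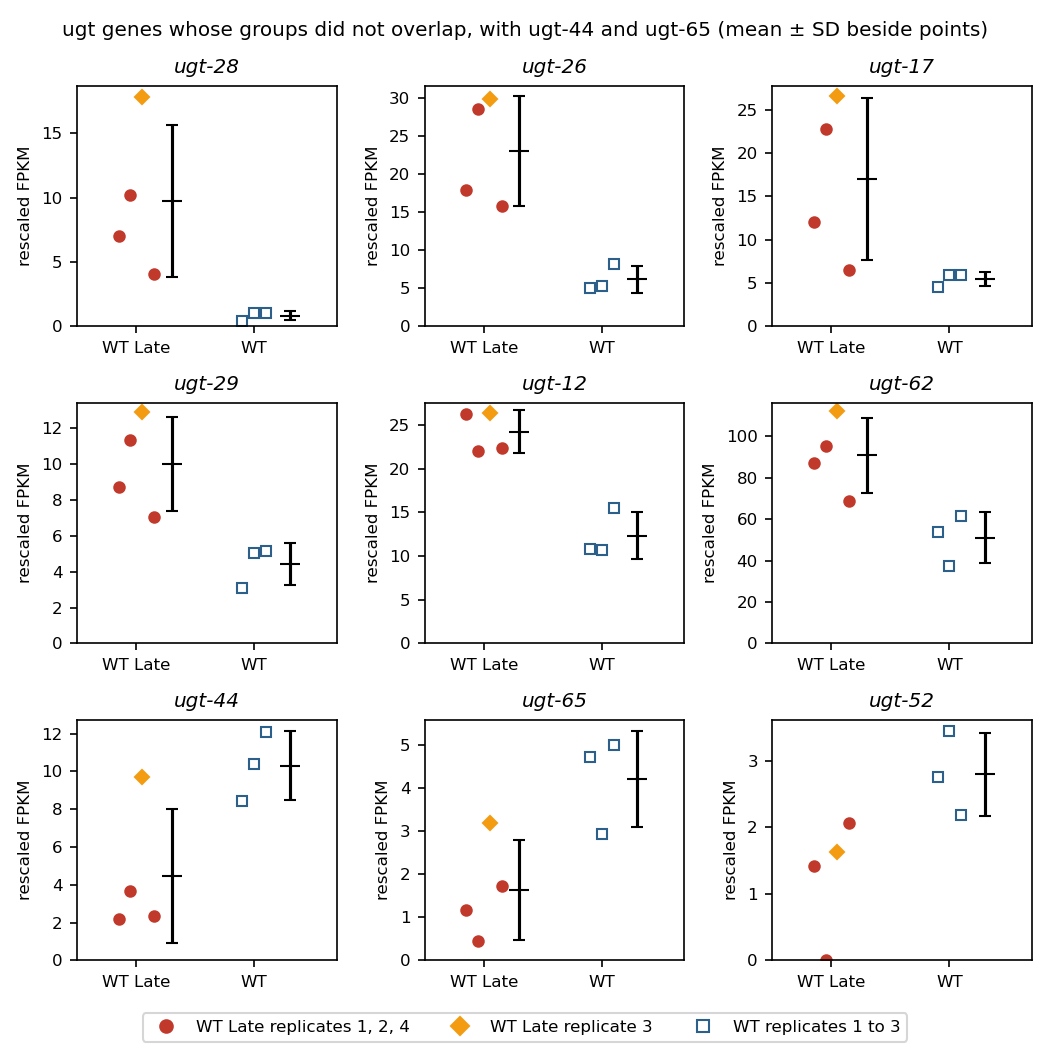
Rescaled FPKM of 9 ugt genes in WT Late (left in each panel) and WT (right). Points are libraries, and bars beside them give the mean ± SD, left out for ugt-52 in WT Late where 1 library was at 0. The 6 genes of the upper rows and ugt-52 had groups that did not overlap, while ugt-44 and ugt-65 overlapped only through WT Late replicate 3, at 9.68 and 3.18 rescaled FPKM.

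No member was called lower, and the 4 members with a log2 fold change below -1 were ugt-63, ugt-44, ugt-65 and ugt-52. The ugt-44 gene (chromosome IV, 10469741 to 10471899, plus strand) had 2.19, 3.69, 9.68 and 2.33 rescaled FPKM in WT Late, against 8.42, 10.4 and 12.1 in WT. Replicates 1, 2 and 4 of WT Late were below all WT libraries and replicate 3 was within their range. The log2 fold change was -1.33 with a standard error of 0.49 (limma adjusted p = 0.391, exact permutation p = 0.0857). Without WT Late replicate 3 it was -1.75 and was called (limma adjusted p = 0.0210), with a WT Late mean of 2.74 rescaled FPKM against 10.3 in WT. The share of all tested genes called in that fit is not given here. Without that library, the WT Late group lay wholly below WT for 18.5% of all tested genes, against 5.09% with it. The ugt-65 gene (chromosome IV, 12425217 to 12432533, plus strand) had 1.16, 0.445, 3.18 and 1.73 rescaled FPKM in WT Late, against 4.70, 2.94 and 4.99 in WT. It shared the pattern of ugt-44, with replicate 3 alone reaching into the WT range. This gave a log2 fold change of -1.29 with a standard error of 0.52 (limma adjusted p = 0.467), and -1.61 without replicate 3 (limma adjusted p = 0.0696).

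The ugt-52 gene (chromosome IV, 778784 to 784182, plus strand) was the only member with every WT Late library below WT. It had 1.42, 0, 1.62 and 2.06 rescaled FPKM in WT Late, against 2.75, 3.44 and 2.19 in WT, on 45, 0, 119 and 36 reads in WT Late and 84, 135 and 84 reads in WT. On the log2 scale the fold change was -1.11 with a standard error of 0.59 (limma adjusted p = 0.641, exact permutation p = 0.0857). It was -0.57 when WT Late replicate 2, the library at 0, was dropped. The ugt-63 gene (chromosome V, 5108180 to 5110791, minus strand) had 0.921, 0, 0.634 and 0.124 rescaled FPKM in WT Late, against 1.06, 0.743 and 4.67 in WT. Its log2 fold change of -1.36 had a standard error of 0.61 (limma adjusted p = 0.550), and WT replicate 3 stood far above the other 2 WT libraries. WT Late replicate 2 listed 7 reported members at 0 (ugt-4, ugt-11, ugt-24, ugt-39, ugt-43, ugt-52 and ugt-63), and no other library listed a reported member at 0. Replicate 2 also had a read on the fewest genes of any library (11069). It was the lowest library for 30.2% of all tested genes, a larger share than any other library.

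Of the 10 members with the highest mean over the 7 libraries, those other than ugt-62, ugt-12 and ugt-26 had log2 fold changes within 0.5 of zero. The ugt-47 gene (chromosome V) had 33.8, 45.4, 50.2 and 32.6 rescaled FPKM in WT Late, against 32.0, 33.0 and 60.3 in WT, with a log2 fold change of -0.01 (limma adjusted p = 0.998). The ugt-22 gene (chromosome IV) had 19.7, 35.4, 89.1 and 28.1 in WT Late, against 28.5, 50.0 and 42.7 in WT, with a log2 fold change of -0.11 (limma adjusted p = 0.967). The ranges of both genes overlapped between the groups, and WT Late replicate 3 was 3.21 times the mean of the other WT Late libraries for ugt-22. The ugt-46 gene on X had 44.2, 34.5, 36.2 and 30.2 rescaled FPKM in WT Late, against 27.5, 29.8 and 30.9 in WT (log2 fold change 0.29, limma adjusted p = 0.836). Only WT replicate 3 overlapped with the WT Late range there. The ugt-23 gene, also on X, had 24.3, 39.9, 27.3 and 24.2 in WT Late, against 23.9, 23.4 and 36.0 in WT (log2 fold change 0.06). The ugt-58 gene on II had 24.9, 14.9, 13.0 and 22.5 rescaled FPKM in WT Late, against 13.8, 11.8 and 17.9 in WT (log2 fold change 0.34). These are overlapping ranges in which neither group was uniformly higher. The ugt-6 gene had 8.69, 11.6, 30.9 and 14.4 in WT Late, against 10.9, 14.8 and 20.9 in WT (log2 fold change -0.04), and ugt-49 had 10.5, 8.11, 29.9 and 10.8 in WT Late, against 14.9, 13.9 and 22.8 in WT (log2 fold change -0.36). In ugt-49, WT Late replicates 1, 2 and 4 were below all WT libraries and replicate 3 was above them.

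Neighbouring members were grouped into genomic clusters, in which the gap between adjacent members was at most 20 kb. This gave 11 clusters with 36 of the 65 members, of which 22 were reported, and 29 members outside clusters, of which 25 were reported. Gaps of at most 10 kb gave the same clusters. Gaps of at most 50 kb also gave 11 clusters, but not the same ones. There ugt-42 joined ugt-29, the only reported member of that pair, at a log2 fold change of 1.09. The ugt-49 gene joined ugt-1 and ugt-2, all 3 negative, and the ugt-6 and ugt-16 clusters merged. Clustered and unclustered members had similar fold changes, with a median log2 fold change of -0.01 over the 22 and -0.04 over the 25, and both called members were clustered. Genes of a cluster are not replicates of each other, so cluster values are given without a test.

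The chromosome I cluster held ugt-26, ugt-27, ugt-28 and ugt-25 (4721131 to 4735276), all on the plus strand. Of the 9 clusters with a reported member at gaps of at most 20 kb, it alone had every reported member positive. Its 3 reported members had a median log2 fold change of 1.80 (range 1.04 to 2.79). Set against each gene's WT mean, the median log2 deviation of these 3 was 1.50, 2.16, 3.11 and 1.32 in WT Late replicates 1 to 4, against -0.47, 0.26 and 0.21 in WT replicates 1 to 3. On chromosome IV, the pair of ugt-43 and ugt-44 (10464588 to 10471899) had a median of -0.90, with deviations of -1.12, -1.39, 0.50 and -1.60 in WT Late, against -0.07, -0.34 and 0.41 in WT. For ugt-44 replicates 1, 2 and 4 of WT Late were below all WT libraries, while ugt-43, at 0.627 rescaled FPKM in WT Late replicate 1, was there within its WT range of 0.322 to 1.50. The other chromosome IV pair, ugt-19 and ugt-20, had a median of -0.16.

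The remaining clusters lay on chromosome V and none held a called member. The cluster of 7 members around ugt-12 (4887187 to 4911399, 4 reported) ran between -0.95 for ugt-11 and 0.96 for ugt-12, with a median of 0.02, so 2 genes next to each other in that cluster differed in sign. The cluster of 6 around ugt-41 (7139477 to 7169281, 3 reported) had a median of 0.25. The pair of ugt-47 and ugt-17 had a median of 0.68, made up of -0.01 and 1.36. The pair of ugt-1 and ugt-2 had a median of -0.14, and the 3 reported members of the cluster of ugt-5, ugt-4, ugt-6 and ugt-3 had a median of 0.00 at 2 decimals. The cluster of ugt-18, ugt-16 and ugt-15 had 1 reported member, ugt-16, at -0.41. The pairs of ugt-34 with ugt-35 and ugt-55 with ugt-56 had no reported member, and no level above 0.5 rescaled FPKM in any library. By chromosome, all 4 reported members on I were positive, with a median of 1.42. On IV, 9 of 11 were negative, with a median of -0.22, and V held 11 positive and 15 negative. Of all 13194 tested genes, 5487 were positive and 7707 negative, with a median of -0.13.

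**Figure D3:**
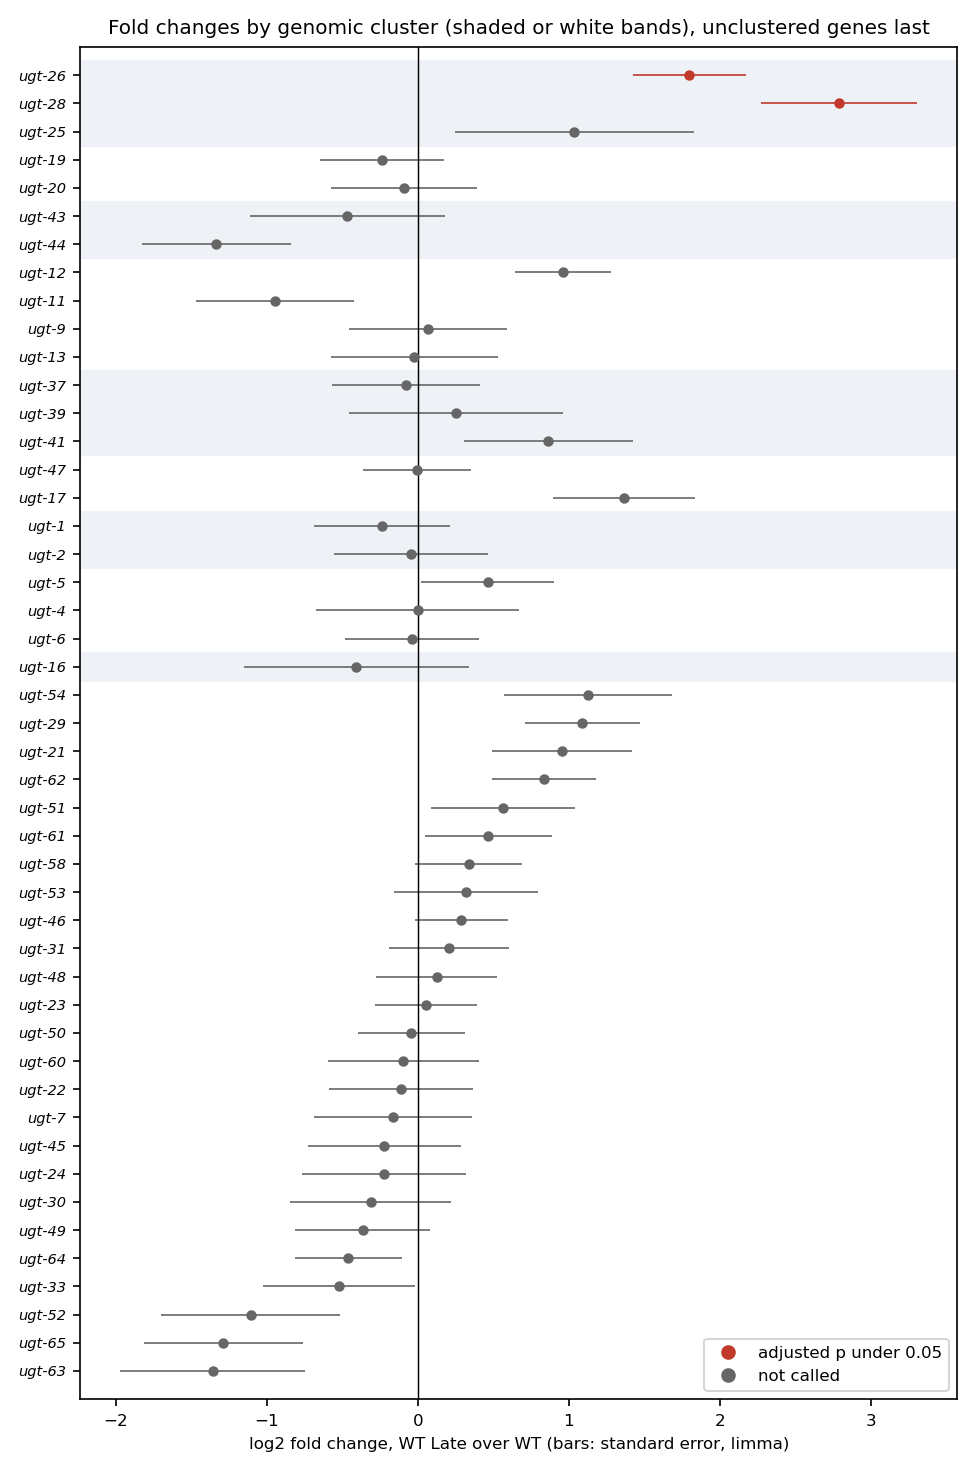
Log2 fold change (WT Late over WT) of the 47 reported ugt genes with its standard error from limma. Shaded and white bands mark the 9 genomic clusters that hold a reported gene, in chromosome order, and the 25 unclustered genes stand below them. The chromosome I band at the top holds both genes called at an adjusted p under 0.05, ugt-28 at 2.79 and ugt-26 at 1.80.

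**Figure D4:**
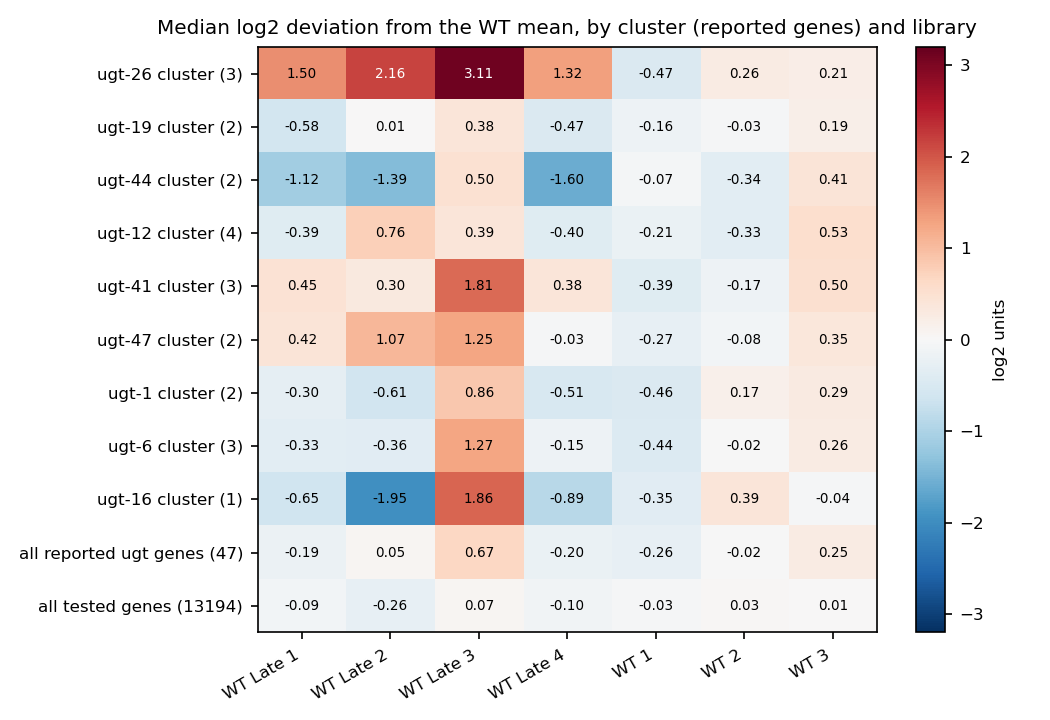
Median log2 deviation from the WT mean of the reported genes of each cluster (rows, with the number of genes) in each library (columns, WT Late left of WT). The cluster led by ugt-26 is above the WT mean in all 4 WT Late libraries (1.32 to 3.11), and the column of WT Late replicate 3 is positive in every row.

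WT Late replicate 3 was high for much of the family. It was the highest of the 7 libraries for 23 of the 47 reported members (48.9%, beside 25.8% of all tested genes). It was above all other WT Late libraries for 28 members (59.6%, beside 40.8%) and at least 2 times the mean of the other WT Late libraries for 17 members (36.2%, beside 25.5%). The median log2 deviation of the 47 members from their WT means was -0.19, 0.05, 0.67 and -0.20 in WT Late replicates 1 to 4, against -0.26, -0.02 and 0.25 in WT replicates 1 to 3. Replicate 3 was at least 10 times the mean of the other WT Late libraries for ugt-4 (11 times), ugt-43 (10.2 times) and ugt-16 (10.1 times). Those means were low, at 0.339, 0.226 and 1.28 rescaled FPKM, with WT Late replicate 2 at 0 for ugt-4 and ugt-43. A read was seen for 64 of the 65 members in WT Late replicate 3, against 41 to 51 in the other WT Late libraries and 54 to 57 in WT.

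The summed level of all 65 members was 424, 506, 712 and 376 rescaled FPKM in WT Late replicates 1 to 4, against 328, 366 and 471 in WT replicates 1 to 3. The groups overlapped, with means of 505 ± 149 in WT Late (SD, n = 4) and 388 ± 73.9 in WT (SD, n = 3), a ratio of 1.30 (exact two-sided permutation p = 0.257). The WT Late mean without replicate 3 was 435. Counted as RPM, its reads scaled to the reads on all genes, the family took 677, 809, 3122 and 384 RPM in WT Late, against 539, 775 and 929 RPM in WT, a ratio of means of 1.67 (exact permutation p = 0.83). Replicate 3 stood further apart on this second scale. The reads that the deposited FPKM was scaled to were 1.79 times the reads on genes in that library, against 0.675 to 1.01 times in the other WT Late libraries and 0.925 to 1.17 times in WT.

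**Figure D5:**
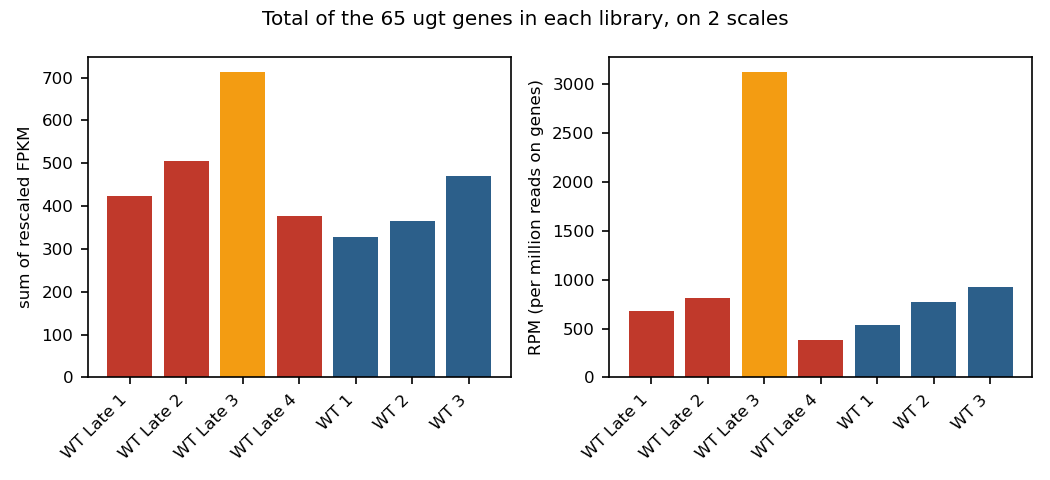
Total of the 65 ugt genes in each library, as the sum of rescaled FPKM (left panel) and as RPM, reads scaled to the reads on all genes (right panel). Bars are single libraries, with WT Late left of WT and WT Late replicate 3 in its own colour. That library is the highest on both scales, at 712 rescaled FPKM and 3122 RPM.

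The members most like ugt-28 across the 7 libraries, by Pearson correlation of log2 levels, were ugt-29 (r = 0.98), ugt-26 (r = 0.97), ugt-17 (r = 0.94) and ugt-12 (r = 0.91). The genes outside the family most like it were pho-13, C52B11.5 and C50F4.16, at r = 0.99, 0.99 and 0.98, and 0.917% of all tested genes had an r above 0.9. The 7 points share the 2 groups and the standing of WT Late replicate 3, so these values are a description.

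Of the 65 members, 18 did not reach the minimum, and 33 of the 47 that did were at or above it in every library. Just inside were ugt-4, with a third-highest deposited value of 0.675 FPKM, and ugt-11, at 0.779 FPKM. The ugt-4 gene had 0.461, 0, 3.73 and 0.557 rescaled FPKM in WT Late, against 0.383, 1.17 and 0.709 in WT, and ugt-11 had 0.573, 0, 0.456 and 0.819 in WT Late, against 0.971, 0.754 and 2.39 in WT. Just outside were ugt-8, at 0.377 FPKM, and ugt-59, at 0.306 FPKM. The ugt-8 gene had 0.368, 0, 5.92 and 0.445 rescaled FPKM in WT Late, against 0.255, 1.02 and 0.0759 in WT, so WT Late replicate 3 was far above the rest. Of the 18 members below the minimum, 17 had a read in WT Late replicate 3, against 1 to 4 in the other WT Late libraries and 7 to 10 in WT. The ugt-38 gene had no read in any library.

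Other genes of the detoxification pathway were counted in the same fit. Of 37 tested glutathione S-transferases, 1 was called higher and none lower: gst-4, a transferase commonly used as a reporter of oxidative stress, had 271, 238, 320 and 129 rescaled FPKM in WT Late, against 57.6, 31.2 and 36.8 in WT (log2 fold change 2.48, limma adjusted p = 0.0134). Of 26 tested regulators of detoxification, 1 was called higher and none lower: nhr-114, a nuclear hormone receptor of the intestine and germline, had 71.7, 77.2, 41.9 and 80.2 in WT Late, against 11.2, 13.0 and 14.4 in WT (log2 fold change 2.32, limma adjusted p = 0.00678). Both were separated from WT in all 4 WT Late libraries. None of 38 tested cytochrome P450 genes was called, with 4 higher and 0 lower at an unadjusted limma p under 0.05. None of 15 tested efflux transporters of the pgp and mrp families was called, with 0 higher and 3 lower at an unadjusted p under 0.05, and none of 14 tested genes of UDP-sugar supply, with 0 in either direction. By the same count there were 4 higher and 2 lower glutathione S-transferases, and 1 higher and 4 lower regulators. Over all 13194 tested genes, 0.667% were called higher and 0.182% lower. At an unadjusted p under 0.05, 538 of the 13194 were higher and 635 lower, together 8.89%. The median log2 fold changes of the 5 lists were 0.08 for the glutathione S-transferases, -0.15 for the regulators, -0.07 for the cytochrome P450 genes, -0.49 for the efflux transporters and -0.11 for UDP-sugar supply, beside -0.13 over all tested genes.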

How the data were processed

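The labels name 4 WT Late and 3 WT libraries, which is 1 WT Late library more than the N = 3 stated with the study's RNA sequencing, and all 7 were used. RNA of whole L4 animals was sequenced, and counts were reported, by a provider. The authors deposited FPKM values for 46778 genes in 7 libraries, together with gene lengths and coordinates. Not given in the sources used here were the aligner, the counter, the strand setting and the genome build. All 65 member identifiers were found in the WBcel235 annotation under the same name, 13 of them with identical coordinates, and exon numbers come from that annotation. FPKM values were whole multiples of 1 read per library for 100% of values (tolerance 0.02 read), which gave the reads. The deposited FPKM was not scaled to the reads on genes. The reads it was scaled to were 0.675 to 1.79 times the reads on genes across the libraries. The purpose of that scaling is not given in the sources.

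A median-of-ratios factor over 10634 genes rescaled FPKM, which was fitted as log2(value + 0.5) with limma 3.58.1 (trend) in R 4.3.3, without a replicate block. Fold changes on this scale understate the change of low genes. The fit was also run on simulated reads with the same added spread for every gene and no outlying library. That run does not cover data with a library such as WT Late replicate 3. Genes with at least 0.5 FPKM in 3 or more libraries were tested, and Benjamini-Hochberg adjusted p under 0.05 was called. Single genes were also compared by an exact two-sided permutation test. Same-numbered replicates had correlations of deviations of 0.24, -0.09 and -0.18, so the numbers were not taken as pairs.

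Members and lists were chosen with earlier results of these data known. Named members were those called, those with non-overlapping groups, the 10 most abundant, the most abundant of each cluster, the 3 largest rises and falls, and those nearest the minimum. Others were named after their values were seen, to complete counts or clusters. Lists of neuronal, muscle, epidermal, germline, sperm and oocyte markers were also summed. Alternatives tried were a replicate block, each library left out in turn, library weights, limma voom on the recovered reads, quantile normalization, FPKM without rescaling, no variance trend, pseudocounts of 0.1 or 1, a minimum of 5 FPKM or none, and cluster gaps of 10 and 50 kb. A planned comparison of protein sequences was not run. Intervals between libraries do not separate PCR copies from molecules.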

Additional observations from a re-analysis of the deposited data

Results flagged for a closer look

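In 4 members a single WT Late library lay far from the other 3 by Dixon's ratio, and in each it was WT Late replicate 3. The ugt-49 gene stood at 29.9 rescaled FPKM there, against 8.11 to 10.8 in the other WT Late libraries. The ugt-16 gene stood at 13.0 rescaled FPKM, against 0.461 to 1.88. The ugt-41 gene stood at 7.08, against 1.55 to 2.02, and ugt-4 stood at 3.73, against 0 to 0.557. The ratio was taken on rescaled FPKM without logs. Its chance rate of about 1 in 20 groups assumes normally distributed values, which was not checked for these data. Of the 47 members 8.51% were so marked in WT Late, beside 11.5% of all tested genes, and the sum over the family was not.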

How the results depend on the processing

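The number of ugt members called higher was 2, and was 0 with FPKM as deposited, without the filter and with limma voom, 1 with quantile normalization, with a pseudocount of 0.1 and without the variance trend, and between 0 and 2 with each library left out in turn. With the replicate block 1 member was called higher, ugt-28 (log2 fold change 3.12, limma adjusted p = 0.0240); WT Late replicate 4 has no numbered partner and drops out of that comparison. Members called lower numbered 2 with library weights (ugt-44 and ugt-65) and between 0 and 1 with each library left out, the 1 being without WT Late replicate 3, whose weight was 0.194. Shares of all tested genes called in these fits are not given here. In the other detoxification lists 2 genes were called higher, 1 with quantile normalization or without the filter, 5 with library weights, and between 0 and 3 with each library left out, and 0 were called lower, 6 with library weights, and between 0 and 2 with each library left out. At a minimum of 5 FPKM, 19 members passed, and the ugt-12 cluster was ugt-12 alone, at 0.96. Quantile normalization moved the median of all genes to -0.01 and of the members to 0.18.

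Fold changes near zero turned in sign. The log2 fold change of ugt-47 was 0.0076 with FPKM as deposited, 0.090 with the replicate block and -0.16 to 0.29 with each library left out. That of ugt-4 was 0.054 with FPKM as deposited, 0.51 with quantile normalization, 0.072 with a pseudocount of 1, 0.064 with the replicate block and -0.60 to 0.42 with each library left out. That of ugt-23 was -0.029 with quantile normalization, -0.14 with library weights and -0.11 to 0.25 with each library left out. That of ugt-6 was 0.0041 with quantile normalization and -0.39 to 0.20 with each library left out. That of ugt-22 was 0.015 with the replicate block and -0.53 to 0.18 with each library left out, and that of ugt-16 was -1.16 to 0.11 with each library left out. The cause was not tested. With 4 and 3 libraries no exact permutation p below 0.0286 was possible, and members with few reads, such as ugt-28 in WT, are limited by counting error.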

Other observations

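The table also held 10 rows with the UDPGT label and no ugt name, of which 3 reached the minimum and none was called. The C23G10.6 gene had 0.877, 0, 12.4 and 1.13 rescaled FPKM in WT Late, against 0.618, 3.16 and 0.181 in WT, on 916 reads in WT Late replicate 3. That library was far above the rest, as for ugt-16 and ugt-8. The F10D2.8 gene, inside the span of the ugt-41 cluster, had 1.59, 1.15, 0.687 and 1.31 in WT Late, against 1.29, 0.613 and 0.740 in WT, and F54C1.1 had 0.189, 0.640, 1.90 and 0.195 in WT Late, against 0.504, 0.978 and 1.02 in WT.

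Around the family, some genes of other detoxification steps had groups that did not overlap. Of those named here gst-4 and nhr-114 passed the adjusted test, and the others did not and are named after their values were seen. Of all tested genes, 4.67% were above WT in every WT Late library and 5.09% were below. Of 15 efflux transporters 2 were below (13.3%) and 0 above. Both, pgp-9 and mrp-1, members of ABC transporter families that export conjugates and drugs, stood at 2.22 to 4.74 rescaled FPKM in WT Late against 9.32 to 16.2 in WT for pgp-9 (log2 fold change -1.65, limma adjusted p = 0.114), and at 0.703 to 3.54 in WT Late against 3.67 to 8.5 in WT for mrp-1 (log2 fold change -1.52, limma adjusted p = 0.330). Of the 26 regulators, 1 was above WT in every WT Late library (3.85%), namely nhr-114, and 5 were below (19.2%), namely skn-1, cebp-1, cbp-1, daf-12 and nhr-48. The level of skn-1, which encodes a transcription factor of the oxidative stress response, was 6.52, 4.35, 5.73 and 8.66 rescaled FPKM in WT Late, against 11.3, 15.9 and 16.4 in WT (log2 fold change -1.16, limma adjusted p = 0.282). Of the 38 cytochrome P450 genes, 4 were above WT in every WT Late library (10.5%), namely cyp-33C8, cyp-33C4, cyp-23A1 and cyp-33A1, and 1 was below (2.63%), namely cyp-32A1. Of the 37 glutathione S-transferases 1 was above, gst-4, and 1 below, gst-20 (2.70% each), and of the 14 genes of UDP-sugar supply 1 was above, D1005.2, and 1 below, sqv-5 (7.14% each).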
